A study of Mus musculus with 3 samples.

Results

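Vascular smooth muscle cells (VSMCs) were taken from the non-cardiomyocytes (non-CMs) of mouse ventricles by their transcripts. They were chosen by measured UMIs, so the genes that chose them are no findings. A cell was kept with at least 200 detected genes. It was called a VSMC when Acta2, Tagln and Myh11 together gave at least 10 unique molecular identifiers (UMIs, each standing for 1 captured transcript), more than Rgs5, Vtn, Kcnj8 and Higd1b together, and over 2 times each of the endothelial sum (Pecam1, Cdh5, Kdr and Egfl7), the fibroblast sum (Col1a1, Col1a2 and Pdgfra) and the blood cell sum (Ptprc, Tyrobp and C1qa). This gave 336 VSMCs of the 6915 cells kept. The mirror image of the rule, with the Rgs5 sum at least 10 UMIs and the larger of the pair, gave 203 cells that are called pericyte-side cells here. All mice were wild-type male C57BL/6J (C57BL/6JJcl). The healthy library, labelled Control, is 0 weeks of transverse aortic constriction (TAC), an operation that narrows the aorta and loads the left ventricle. The adaptive hypertrophy library is 2 weeks and the heart failure library 12 weeks after TAC, which was done at 8 weeks of age. Each phase has 1 library and the number of hearts in each is not given in the sources used here, so that phase and library cannot be told apart and no difference between phases was tested. Every interval below is an exact 95% interval that covers counting error only.

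VSMCs form the muscular wall of arteries and, more thinly, of arterioles and veins, and their tone sets the resistance to flow. Myosin motors made of Myh11 and its light chains pull on filaments of smooth muscle actin (Acta2), and the kinase Mylk starts the pull when calcium rises. Pericytes are the neighbouring mural cells of capillaries. They share Pdgfrb and Notch3 with VSMCs, carry Rgs5 and the potassium channel subunits Kcnj8 and Abcc9, and have little of the contractile machinery. In injured arteries VSMCs are known to lose contractile genes and to gain matrix and migration genes, a shift called modulation.

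The contractile genes are classic targets of serum response factor, whose DNA site is the CArG box, CC, 6 bases of A or T, and GG. The pattern reads alike on both strands. The 250 bases before the RefSeq transcription start (GRCm38.p6) were searched for it with at most 1 core base other than A or T allowed. These 3 windows are shown because they belong to the actin gene of the rule and to the genes Myl9 and Dstn, which are among the 12 with the largest excess in VSMCs below. The boxes are in capitals. Their positions count from the RefSeq start, not from the ends of the gene spans printed below, which the Acta2 and Myl9 windows overlap. Acta2 lies at chr19:34255374-34255623 on the minus strand with boxes starting at -84 and -34, Myl9 at chr2:156775214-156775463 on the plus strand with boxes at -161 and -99, and Dstn at chr2:143915081-143915330 on the plus strand with a box at -106.
Acta2: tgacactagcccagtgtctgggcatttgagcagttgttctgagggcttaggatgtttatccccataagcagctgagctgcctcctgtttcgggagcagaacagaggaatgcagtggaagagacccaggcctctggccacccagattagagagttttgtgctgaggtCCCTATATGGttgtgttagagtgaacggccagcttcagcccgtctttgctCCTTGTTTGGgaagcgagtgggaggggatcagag
Myl9: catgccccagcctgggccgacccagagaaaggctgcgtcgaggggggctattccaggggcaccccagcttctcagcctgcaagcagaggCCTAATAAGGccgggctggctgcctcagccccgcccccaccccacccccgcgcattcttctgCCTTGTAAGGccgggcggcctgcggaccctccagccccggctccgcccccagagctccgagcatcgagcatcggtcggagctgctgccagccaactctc
Dstn: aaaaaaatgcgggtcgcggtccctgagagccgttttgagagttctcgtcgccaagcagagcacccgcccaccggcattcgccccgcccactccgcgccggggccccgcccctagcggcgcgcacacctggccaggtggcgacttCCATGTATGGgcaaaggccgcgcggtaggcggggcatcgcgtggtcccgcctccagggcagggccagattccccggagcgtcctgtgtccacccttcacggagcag
A box of this kind was in 10 of the 35 contractile genes that have a window (28.6%) and in 8.59% of all 32851 windows. With all 6 core bases A or T, the shares were 14.3% and 1.47%, and the Myl9 box CCTAATAAGG is of that kind. Of the 12 genes highest in VSMCs over pericyte-side cells, 3 of the 10 with a window held a box, against 1 of 7 of those lowest. A match of letters is a description and no measured binding site. Tagln, Myh11 and Actg2 were not among the windows used.

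The healthy library gave 275 VSMCs, the 2-week library 40 and the 12-week library 21, holding 1006373, 159384 and 98479 UMIs. The median VSMC held 2882, 2985 and 4077 UMIs at 0, 2 and 12 weeks, while the median of all cells kept was 2589, 1495 and 1434. VSMCs had more mitochondrial transcripts than other cells. The median mitochondrial share was 7.58%, 10.4% and 9.35% in VSMCs against 2.66%, 2.57% and 3.11% in all cells, and over 10% in 37.5%, 55% and 42.9% of VSMCs. No VSMC shared its barcode with a VSMC of another library, and 9 barcodes were shared among all cells (5 between 0 and 2 weeks, 1 between 0 and 12 and 3 between 2 and 12). Scrublet called 33 of 6915 cells doublets, 0.477%, which is too few for the call to be relied on, and the cells were kept. RNA of other cells was present in some VSMCs. The endothelial sum was 0 in 64.4%, 62.5% and 52.4% of them and at least 5 UMIs in 53, 9 and 4 cells.

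The labelled identity was checked with markers. Cnn1 (calponin) and Mylk (myosin light chain kinase) were not used by the rule and stood at 274 and 1794 CPM (UMIs of a gene, summed over the cells and scaled to 1000000 UMIs in all) in healthy VSMCs. They stood at 5.92 and 607 CPM in healthy pericyte-side cells. After each cell was thinned to 1000 UMIs, a Cnn1 UMI was in 26.5% of the 275 healthy VSMCs and in 0 of 160 pericyte-side cells (upper limit 2.28% at 1000 UMIs per cell). Before thinning these shares were 45.8% and 2.5%. The thinned share of VSMCs was 17.6% at 2 weeks and 35% at 12 weeks. Among 907 healthy blood cells, which should lack it, the thinned share was 0.11%, and 0.441% before thinning, at a median depth of 2673 UMIs. Mylk was in 81.8% of thinned healthy VSMCs (96.7% unthinned), 40.6% of pericyte-side cells and 1.54% of blood cells, and the blood shares of Acta2, Tagln and Myh11 were 4.08%, 2.54% and 0.992%. Both markers were thus above the blood level in the sum of healthy VSMCs, and 215 of the 276 Cnn1 UMIs lay in the 130 cells where the Rgs5 sum was 0 to 10% of both sums. Of the 12 cardiomyocyte markers, Myh6 had 0 UMIs in all VSMCs, while the list as a whole held 180, 27 and 50 UMIs.

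The rule genes themselves chose the cells and are given as a description. Acta2 (chromosome 19, 34241090 to 34255590, minus strand, GRCm38) was at 9182 CPM in the healthy library, 9988 at 2 weeks and 12551 at 12 weeks. Tagln (chromosome 9, 45929619 to 45936058, minus strand), which encodes the actin binding protein SM22, was at 5924, 7328 and 7799 CPM. Myh11 (chromosome 16, 14194535 to 14291372, minus strand) was at 2257, 2353 and 1543 CPM. Summed over all VSMCs of a library, Acta2 and Tagln were thus highest at 12 weeks and the myosin heavy chain lowest. VSMCs were also split by the share of the Rgs5 sum in both sums, 0 to 10, 10 to 25 and 25 to 50%. Tagln was then at 12394, 8175 and 5960 CPM at 2 weeks and lower, at 9616, 8081 and 5178, at 12 weeks. Acta2 was at 12630, 12141 and 8648 CPM at 2 weeks and 14835, 13565 and 8562 at 12 weeks. Myh11 was lowest at 12 weeks in each of these bins. The sum of the 3 genes ran from 10 to 290 UMIs per healthy VSMC with a median of 52, from 10 to 264 with a median of 60 at 2 weeks, and from 19 to 281 with a median of 92 at 12 weeks. Few cells lay near the lower limit: 4 VSMCs had sums of 10 to 12 and 2 cells that met the other conditions had sums of 7 to 9, with Myl9 at 4676 and 3926 CPM. The border with the pericyte side was crowded. The Rgs5 sum made up 40 to 50% of both sums in 37, 5 and 3 VSMCs and 50 to 60% in 37, 7 and 1 pericyte-side cells.

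**Figure D1:**
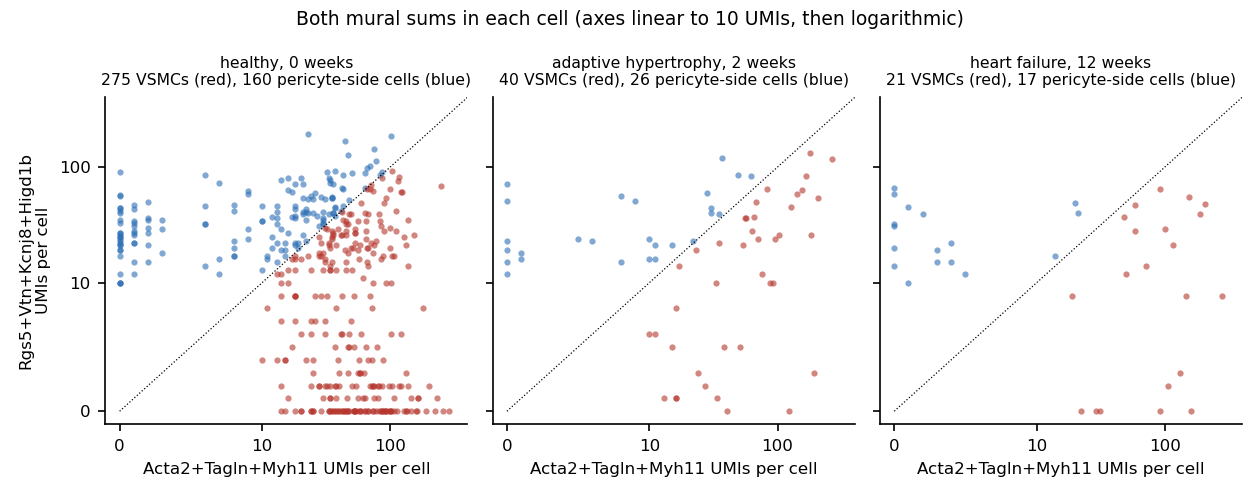
Each point is 1 cell, with its UMIs of Acta2, Tagln and Myh11 on the x axis and of Rgs5, Vtn, Kcnj8 and Higd1b on the y axis, 1 panel per library; both axes are linear to 10 UMIs and logarithmic above. VSMCs lie below the line of equal sums, 275, 40 and 21 of them, and cells crowd on both sides of it without a gap.

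In the healthy library VSMCs were 7.07% of cells kept (6.28 to 7.92). The 2-week library gave 1.79% (1.28 to 2.43), and the share was 2.65% (1.65 to 4.02) in heart failure. The healthy share was the highest and the intervals of the TAC libraries overlapped. The share depends on how many endothelial, fibroblast and blood cells were recovered. Per pericyte-side cell there were 1.72 VSMCs (1.41 to 2.10) at 0 weeks, 1.54 (0.916 to 2.63) at 2 weeks and 1.24 (0.621 to 2.49) at 12 weeks, and no difference in this ratio was detectable at these cell numbers. With only those pericyte-side cells counted that also had 10 smooth muscle UMIs, the ratios were 2.93, 3.08 and 7, so that the order depended on this choice. The last value is imprecise, since only a few of the 17 pericyte-side cells at 12 weeks remained beside 21 VSMCs. No change between phases is read from these ratios. Without cells of over 10% mitochondrial UMIs the VSMC share was 4.65% at 0 weeks and 0.890% at 2 weeks.

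VSMCs of the healthy library were then set beside pericyte-side cells of the same library. The rule split these cells on their mural genes, so the contrast is a description. Contractile and actin-regulating genes led the VSMC side, and genes of capillary pericytes, lipid handling and endothelial cells the other. Of 7492 genes with at least 20 UMIs in both groups together, 71 (0.948%) were over 2-fold higher in VSMCs and 65 (0.868%) over 2-fold lower, with 50 CPM added to each level. The counts were 228 and 374 with 10 CPM added, 168 and 196 with a margin of 2 times between the mural sums, and 130 and 132 in cells with at most 1 endothelial UMI. Cnn1 had the largest ratio of the markers, 46.3 (17.9 to 171). Actg2 (chromosome 6, 83512905 to 83536265, minus strand), the enteric smooth muscle actin, was at 166 against 10.4 CPM (16.0, 7.6 to 40.4). Pln, phospholamban, which restrains the calcium pump, was at 535 against 62.2 CPM (8.59, 6.27 to 12.1). These are parts of the filaments and of the calcium store that drives them.

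Others of the 12 highest genes build or trim the same filaments. Myl9 (chromosome 2, 156775420 to 156781658, plus strand), the regulatory myosin light chain, was at 4905 CPM in VSMCs and 1013 in pericyte-side cells, a ratio of 4.84 (4.47 to 5.25). Tpm2 (beta-tropomyosin) was at 4316 and 896 CPM, and Dstn (destrin, an actin-severing protein) at 2634 and 741. Csrp1, a LIM protein of smooth muscle, was at 1204 and 280 CPM, Ckb, the creatine kinase that buffers ATP, at 994 and 207, and the actin-linked scaffold Sorbs2 at 775 and 151. Sh3bgr at 245 and 29.6 CPM, Fgl2 at 296 and 48.9 and Ramp1, the co-receptor for the vasodilator CGRP, at 193 and 26.7 completed the highest 12.

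The 12 lowest genes were Abcc9, Colec11, Steap4, Rbp7, Gpihbp1, Phlda1, Cxcl2, Cd36, Marcks, Fabp5, Fabp4 and Nrp1. Abcc9, the sulfonylurea receptor of the pericyte potassium channel, had 4 UMIs in VSMCs (3.97 CPM) against 154 CPM, a ratio of 0.0258 (0.0069 to 0.0681). Colec11, a soluble lectin, was at 6.96 against 167 CPM and Steap4, a metalloreductase, at 25.8 against 267. The fatty acid genes Fabp4 (1070 against 4555 CPM), Cd36 (197 against 948), Fabp5 (83.5 against 379) and Gpihbp1 (33.8 against 216) are markers of capillary endothelium. The endothelial list of 14 genes moved with them: it summed to 3331 CPM in VSMCs and 10149 in pericyte-side cells, with 14 of 14 members lower and 9 over 2-fold lower. The part of endothelial RNA in the lower genes was not tested. In the TAC libraries, the 12 higher genes were higher in VSMCs in 12 of 12 cases at both times. At 2 weeks 10 of them passed 2-fold, where 6.59% of 1835 genes did, and at 12 weeks 11, where 12.8% of 1052 did. Of the 12 lower genes, 11 were lower at both times, 8 over 2-fold at 2 weeks and 11 at 12 weeks (5.94% and 7.6% of all genes). Cxcl2 was the exception, and 39.2% of its healthy pericyte-side UMIs came from 1 cell. The shares of all genes count only genes with at least 20 UMIs in both groups together, while the counts of 12 have no such minimum. Abcc9 had 3 and 7 UMIs at 2 weeks. Actg2 was counted as higher on 2 UMIs against 0 at 2 weeks and 3 against 0 at 12 weeks. The counts and shares are thus of unlike sets.

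**Figure D2:**
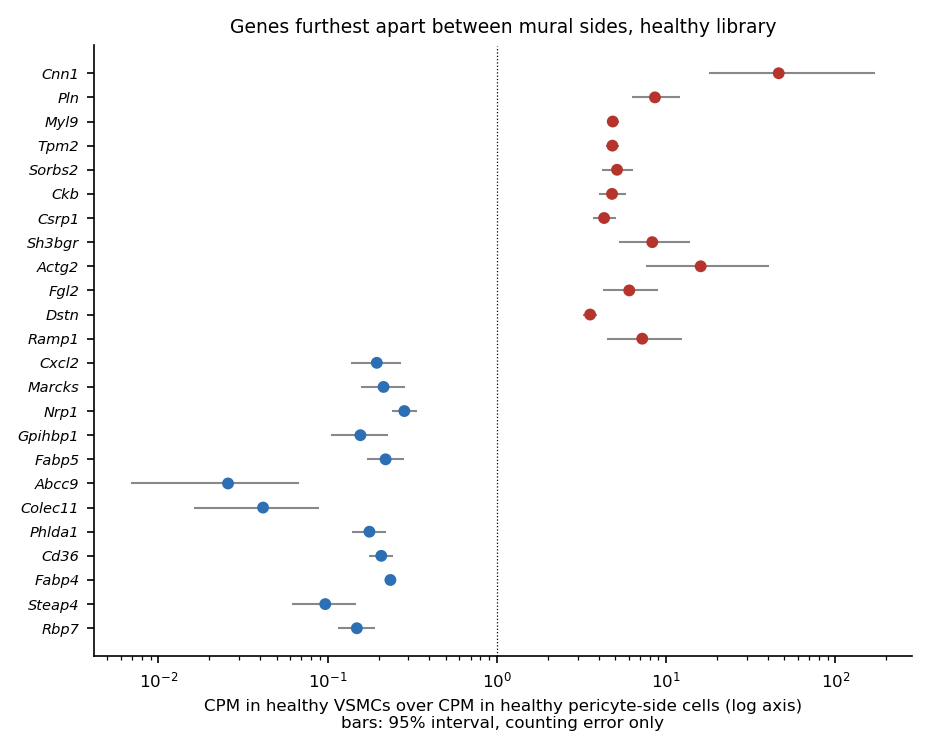
Ratio of the level in healthy VSMCs to that in healthy pericyte-side cells (x axis, logarithmic) for the 12 highest genes (red) and 12 lowest genes (blue, y axis), with 95% intervals as bars. Cnn1 lies farthest to the right at 46.3 and Abcc9 farthest to the left at 0.0258, both with wide intervals.

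The gene lists gave the same contrast by group. The 40 contractile genes, which leave out the 3 rule genes, were higher in VSMCs in 37 cases and over 2-fold higher in 18, with a median log2 ratio of 0.95 where the median of all genes was -0.07. They summed to 44855 against 19288 CPM, 2.33 times (2.28 to 2.37). The median VSMC gave them 4.67% of its UMIs and the median pericyte-side cell 1.91%. Of 23 measured pericyte genes outside the rule, 6 were higher and 17 lower, 6 of them over 2-fold, with a median of -0.51. Of 29 regulators of smooth muscle genes 11 were higher and 18 lower, and of 33 vasoactive receptors and calcium genes 21 and 12, with medians of -0.08 and 0.27. Of 38 elastic and matrix genes 22 were higher and 16 lower, and of 27 modulation genes 9 and 18. Early response genes, which tissue digestion is known to raise, were lower in 23 of 27 cases with a median of -0.33, and the fibroblast list summed to 2123 against 1311 CPM. The blood cell list was lower in 9 of 9 cases, 4 of them over 2-fold, with a median of -0.95.

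Contractile levels were lower in each bin with a larger share of the Rgs5 sum. The share is of both rule sums, so Acta2, Tagln and Myh11 also set the bins, and the order is a description. Healthy mural cells were ordered by the percent of both sums that came from the Rgs5 sum, in bins of 0 to 10, 10 to 25 and 25 to 50 on the VSMC side (130, 52 and 93 cells) and 50 to 75, 75 to 90 and 90 to 100 on the other (87, 25 and 48 cells). In that order the contractile list stood at 57586, 45413, 33128, 23773, 17086 and 8853 CPM. Cnn1 stood at 558, 207 and 49.1 CPM in the VSMC bins and at 7.42, 0 and 6.76 in the others, and Actg2 at 402, 41.4 and 9.35 and then 17.3, 0 and 0. The enteric actin and calponin were thus highest in the first bin, while Mylk ran from 2018, 1850 and 1566 down to 806, 448 and 196 CPM. Notch3, the receptor that holds mural cells in their state, lay between 257 and 439 CPM in all bins. Abcc9 was high at the far end, from 2.59 CPM in the first bin through 89.5 in the fifth to 548 in the last. The elastic and matrix list was high at both ends, at 13597 CPM in the first bin, 7876 in the third and 13195 in the last. The endothelial list ran with the order, from 1419 CPM to 13174, and the median mitochondrial share against it, from 12.3% to 3.27%. Their part in the order was not tested.

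**Figure D3:**
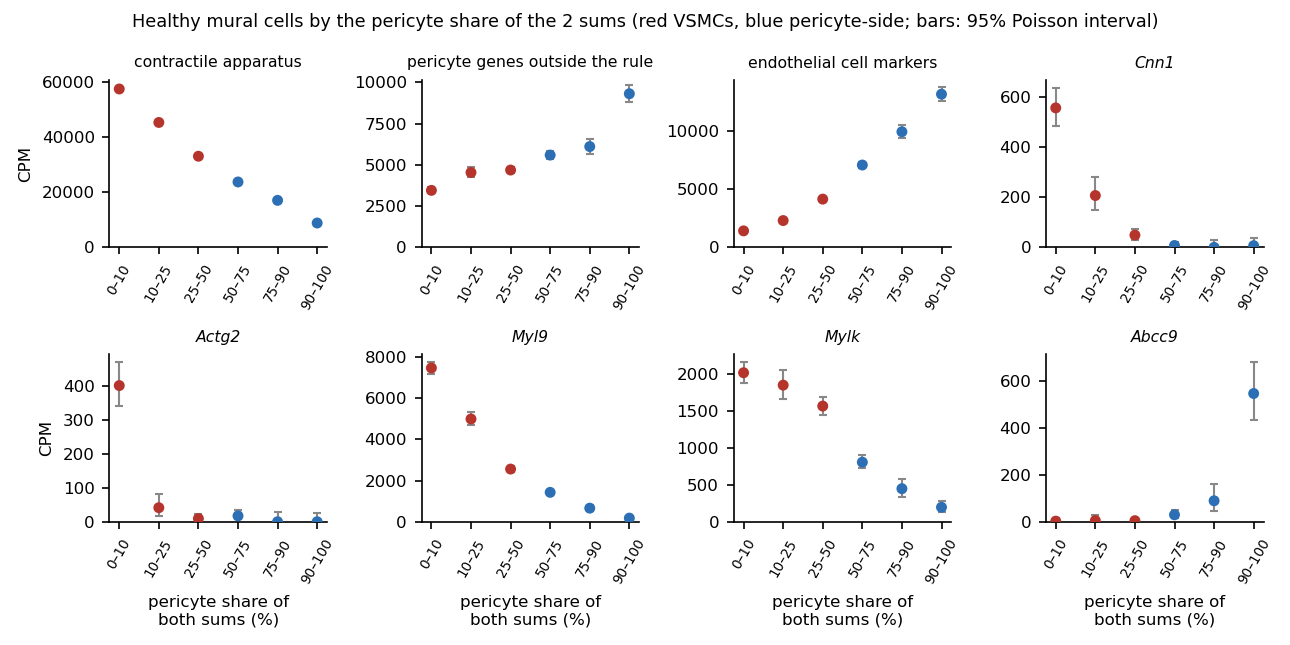
Levels of 3 lists and 5 genes in healthy mural cells (y axes, CPM; VSMCs red, pericyte-side cells blue) by the percent of both sums that came from Rgs5, Vtn, Kcnj8 and Higd1b (x axis, 6 bins of 130, 52, 93, 87, 25 and 48 cells); bars are exact 95% Poisson intervals. The contractile list declines from 57586 to 8853 CPM across the bins, and Abcc9 reaches 548 CPM in the last.

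Genes of healthy VSMCs were ranked by the variance over the mean of their UMIs, and Malat1 came first. This measure tends to be larger for abundant genes, and Malat1 was at 97139 CPM. The rank therefore does not show that cells differed most in Malat1 relative to its level. Among 1359 genes, thinned to 1000 UMIs per cell, the variance of Malat1 was 26.8 times its mean, and the median gene had 1.07. Actb (5.56), Gsn (5.01), the rule gene Acta2 (4.94), Apoe (4.84) and Tpm2 (4.22) followed. Mgp (4.05), Fabp4 (3.79), Myl9 (3.56) and the Notch target Hes1 (3.56) completed the 10. Of the Gsn UMIs, 17.8% came from 1 cell. Part of the spread went with endothelial UMIs. In the 177 healthy VSMCs without an endothelial UMI the contractile list was at 59648 CPM and Acta2 at 13765, and in the 53 with at least 5 they were at 30268 and 4678, with median depths of 2333 and 6970 UMIs. Red cell genes gave 3576 UMIs in healthy VSMCs, 3571 of them in 2 cells.

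At 2 weeks of TAC the summed contractile list of VSMCs, whose largest member is Crip1, was 1.15 times the healthy level. Actg2 was almost missing, and Mustn1 and Id3 were at 1.98 and 1.99 times their healthy levels. Of 6072 genes measured against the healthy VSMCs, 31 (0.511%) were over 2-fold higher and 41 (0.675%) over 2-fold lower. With the cell of most UMIs left out for each gene, 19 were higher, and with 10 CPM added in place of 50, 193 were higher and 457 lower. The median log2 ratio of all genes was 0.01. The comparison at 12 weeks uses the same healthy VSMCs, so its values are not independent of these.

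Among the 8 genes with the largest ratio, Higd1b (chromosome 11, 102835849 to 102838040, plus strand) is a mitochondrial membrane protein and one of the rule genes of the pericyte side. It was at 211 CPM in the healthy and 665 in the 2-week VSMCs, a ratio of 3.16 (2.48 to 4.00). The ratio was 1.05 in pericyte-side cells, which stood at 664 and 697 CPM. Its UMIs helped to sort the cells, so these levels are a description. Il6, an inflammatory cytokine, was at 43.7 and 201 CPM (4.59, 2.82 to 7.41) in 7 cells, with 31.2% in 1 of them. The Il6 ratio was 4.44 in pericyte-side, 5.48 in endothelial, 2.17 in fibroblast and 1.55 in blood cells. Edn1, the vasoconstrictor endothelin 1, was at 63.6 and 301 CPM, but 54.2% of its 2-week UMIs came from 1 cell and the ratio was 2.28 without that cell. Among cells with at most 1 endothelial UMI its log2 ratio was -0.25, the opposite direction. Mt2, a metallothionein, was at 166 and 527 CPM. Its ratio was 1.54 in pericyte-side cells and 0.373 in endothelial cells.

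Dbp, an output gene of the circadian clock, had 4 UMIs in healthy VSMCs (3.97 CPM) and 34 at 2 weeks (213 CPM), a ratio of 53.7 (19.1 to 208), with ratios of 30.2, 48.1, 5.46 and 4.01 in pericyte-side, endothelial, fibroblast and blood cells. It had 0 UMIs in VSMCs at 12 weeks. Wdr89 (3.14) and Gm9843 (3.23) were also higher in all these reference cells. Gm9780 was at a ratio of 5.86 in VSMCs, 1.78 in pericyte-side cells, 0.993 in endothelial cells and 1.97 in fibroblasts, with 0 UMIs in blood cells at 2 weeks. Malat1, a nuclear RNA, was at 97139 CPM in healthy VSMCs and 11551 at 2 weeks, and Neat1, also nuclear, at a ratio of 0.147. Both were lower in every reference class. Because Malat1 takes so many UMIs, the ratios of all other genes carry its change, and with Malat1 and mitochondrial UMIs left out of the totals the contractile ratio at 2 weeks was 1.05.

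Actg2 was the only contractile gene over 2-fold lower at 2 weeks. It had 167 UMIs in healthy VSMCs (166 CPM), 2 at 2 weeks (12.5 CPM) and 3 at 12 weeks (30.5 CPM), and its ratio at 2 weeks was 0.0756 (0.00908 to 0.277). After thinning, an Actg2 UMI was in 13.8%, 5.88% and 5% of VSMCs (unthinned 25.8%, 5% and 4.76%), against 0.11% of healthy blood cells. The libraries differ in how many VSMCs lie in the first bin, where Actg2 is found, so the level was also taken inside that bin. There it was 402 CPM (341 to 470) in 130 healthy cells, 47.3 (1.20 to 264) in 10 cells at 2 weeks and 79.5 (16.4 to 232) in 9 cells at 12 weeks. Dcn (311 and 12.5 CPM) and Apoe (256 and 25.1) were also among the 8 lowest at 2 weeks. Dcn is a fibroblast gene, and 28.1% of its healthy UMIs came from 1 cell. The Dcn ratios in pericyte-side, endothelial, fibroblast and blood cells were 0.0838, 0.0639, 0.623 and 0.0960. Those of Apoe were 0.196, 0.302, 0.973 and 0.559, so the fall of both was not limited to VSMCs. Iigp1, with 98.4 CPM in healthy VSMCs, had 0 UMIs at 2 weeks, and Kcnq1ot1 (0.191) and Ncapd3 (0.132) completed the lowest 8. In the same order of classes Kcnq1ot1 was at 0.0505, 0.462, 0.385 and 0.458 and Iigp1 at 0.423, 0.858, 2.26 and 0.420. Ncapd3 was at 0.540 in endothelial cells.

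At 12 weeks the levels of matrix and growth factor genes were mostly below the healthy ones, while Tpm2 and Myl9 were above them. Of 5865 genes, 67 (1.14%) were over 2-fold higher and 114 (1.94%) over 2-fold lower, with a median log2 ratio of -0.05. The counts were 244 and 857 with 10 CPM added, and 102 higher when each cell weighed the same. Most leading genes on the higher side moved through the whole library. Gstp1 (19.9 and 558 CPM, 28.1), AY036118 (548 and 2924 CPM, 5.34), Gm10020 (40.9), Gm8797 (10.8), Gm10076 (9.72) and Gm10073 (8.68) were all higher in pericyte-side, endothelial, fibroblast and blood cells, at ratios of at least 4.26. The Gm genes are predicted genes, and these and Gstp1 may share reads with near-identical copies, so that their levels are uncertain.

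The lowest genes at 12 weeks included 2 proteases of the ADAMTS family, which cleave proteoglycans of the vessel wall. Adamts9 had 163 CPM in healthy VSMCs and 0 UMIs at 12 weeks, a ratio of at most 0.187 when 3 UMIs are put in place of 0. Adamts4 was at 210 and 20.3 CPM (0.0969). Emp1, a membrane protein, was at 329 and 60.9 CPM, and Smarca5, a chromatin remodeler, at 597 and 132. Spty2d1 (0.0414), Meg3 (0.112), Neat1 (0.128) and Kcnq1ot1, with 0 UMIs, completed the 8. The ratios in pericyte-side cells, endothelial cells and fibroblasts were 0.126, 0.257 and 0.304 for Adamts9 and 0.138, 0.661 and 0.502 for Smarca5. They were 0.384, 0.361 and 0.922 for Adamts4, 0.546, 0.502 and 0.980 for Emp1 and 0.397, 0.550 and 0.590 for Spty2d1. Neat1 was at 0.101, 0.391 and 0.323, Kcnq1ot1 at 0.424, 0.440 and 0.419 and Meg3 at 0.958, 0.850 and 0.622. In blood cells Smarca5 (1.25) and Spty2d1 (1.12) were above the healthy level and Neat1 (0.636), Kcnq1ot1 (0.754) and Emp1 (0.279) below it.

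**Figure D4:**
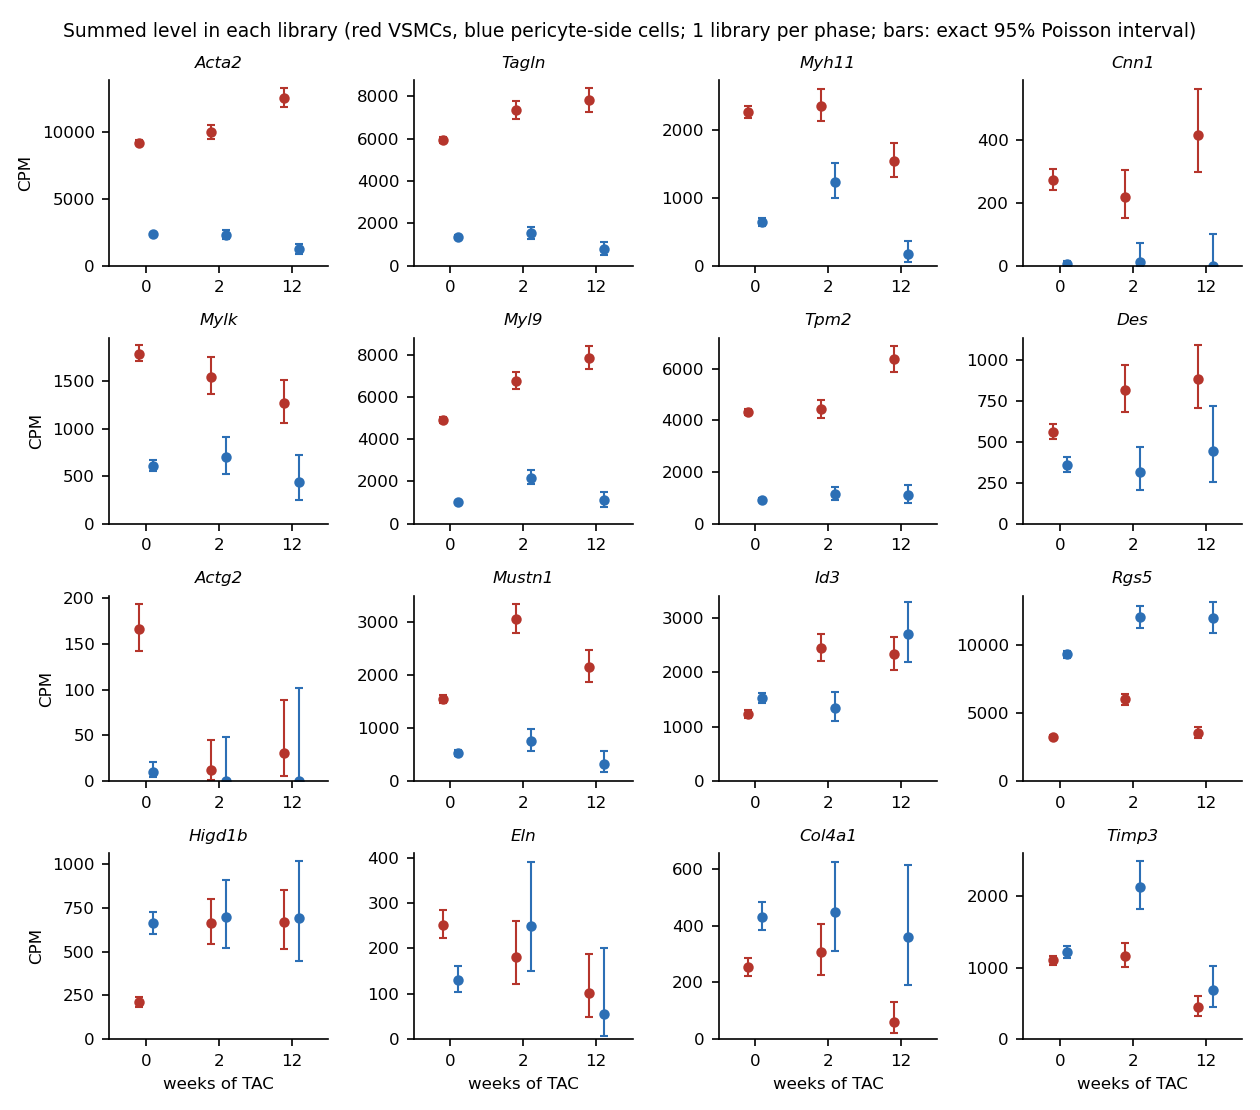
Levels of 16 genes (y axes, CPM) at 0, 2 and 12 weeks (x axis) in VSMCs (red) and pericyte-side cells (blue), with 1 library per phase and bars for exact 95% Poisson intervals. Acta2 in VSMCs goes from 9182 to 12551 CPM, Actg2 from 166 to 12.5 and 30.5, and Myl9 from 4905 to 7870.

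The contractile genes did not move as a block. Of 40 measured, 19 were higher and 21 lower at 2 weeks, with a median log2 ratio of -0.07, and 18 and 22 at 12 weeks, with -0.06. Their sum was above the healthy level all the same, at 44855, 51712 and 52265 CPM, ratios of 1.15 (1.13 to 1.18) and 1.17 (1.13 to 1.20), with the abundant members higher. Of the 4 with the most UMIs, Crip1 was at 8867, 11375 and 9830 CPM and Myl6, the essential light chain, at 5104, 6331 and 6753. Myl9 was at 4905, 6770 and 7870 CPM and Tpm2 at 4316, 4423 and 6367. Crip1 is the largest part of the sum, and the sum was not taken without it. The ratio of Myl9 was 1.38 (1.29 to 1.47) and 1.60 (1.49 to 1.73). Crip1, Myl6 and Myl9 were above their healthy levels at both times. Tpm2 was above its healthy level at 12 weeks and near it at 2 weeks. The marker Cnn1 was at 274, 220 and 416 CPM, with ratios of 0.801 (0.546 to 1.14) and 1.52 (1.07 to 2.11). Inside the VSMC bins by share of the Rgs5 sum, Cnn1 was at 558, 207 and 49.1 CPM in healthy cells. At 2 weeks it was at 757, 270 and 89.0 CPM, above the healthy level in each bin, with overlapping intervals. The lower summed level at 2 weeks was thus not seen inside any bin. The first bin held 25% of VSMCs at 2 weeks and 47.3% of healthy ones. At 12 weeks the bins stood at 609, 577 and 0 CPM. Mylk was at 1794, 1550 and 1269 CPM, with ratios of 0.864 (0.753 to 0.987) and 0.708 (0.586 to 0.849). With each cell thinned to 1000 UMIs, the summed contractile ratios were 1.10 and 1.02, so that the 12-week excess was near 0 on that scale.

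Other contractile members are named after their values were seen. Mustn1, a small muscle protein, was at 1545, 3062 and 2163 CPM, a ratio of 1.98 (1.79 to 2.2) at 2 weeks, with 1.43 in pericyte-side and 0.832 in endothelial cells. Des (desmin, the muscle intermediate filament) was at 561, 816 and 883 CPM. Vcl (vinculin, which ties actin to adhesion sites) was at 135, 207 and 20.3 CPM, the last from 2 UMIs. Inside the first bin of VSMCs, Mustn1 was at 1782, 4541 and 2808 CPM and Des at 565, 1088 and 980, so that both were above the healthy level there too.

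Of 29 regulators of smooth muscle genes, 22 were higher and 7 lower at 2 weeks, with a median log2 ratio of 0.28 against 0.01 for all genes. At 12 weeks 10 were higher and 19 lower, with -0.32 against -0.05. None passed 2-fold at 2 weeks and 1 did at 12 weeks, on the lower side, where 1.94% of all genes did. Id3, an inhibitor of basic helix-loop-helix factors, was at 1235, 2453 and 2336 CPM, ratios of 1.99 and 1.89. Its level in the first VSMC bin was 1411, 2791 and 2066 CPM. In the second bin Id3 was at 1181, 2779 and 1187 CPM. In the third it was at 1101, 2263 and 3892 CPM, the last from 6 cells. The 12-week excess was thus uneven over the bins. Klf4, which is known to repress contractile genes, was at 1420, 1167 and 772 CPM, and its flow-responsive relative Klf2 at 1974, 2027 and 1665. Among those picked out afterwards, Notch3 was at 356, 577 and 274 CPM, and Myocd, the coactivator of serum response factor, at 42.7, 43.9 and 30.5 CPM, too low to show a difference.

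Of 28 vasoactive and calcium genes, 16 were higher and 12 lower at 2 weeks and 10 and 18 at 12 weeks. Their summed ratio of 1.33 at 2 weeks includes the rule gene Rgs5, a brake on G protein signalling, at 3287, 6023 and 3574 CPM. Rgs5 was 1.83 times the healthy level (1.70 to 1.97) at 2 weeks, and it limits which cells enter, so that this is a description. Rasl11a was at 1877, 2039 and 2833 CPM. Gucy1a3, a subunit of the nitric oxide receptor, was below the healthy level at both times, at 672, 301 and 457 CPM.

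At 12 weeks, of 38 elastic and matrix genes 5 were higher and 33 lower, 4 of them over 2-fold (1.94% of all genes), with a median log2 ratio of -0.50 against -0.05 for all genes, and they summed to 10120, 10748 and 6935 CPM, a 12-week ratio of 0.685 (0.633 to 0.741). At 2 weeks 18 were higher and 20 lower, with a median of -0.06. Igfbp7, the most abundant, was at 2765, 2472 and 1767 CPM, Sparc at 1304, 1355 and 904, Bgn (biglycan) at 449, 521 and 294 and Sparcl1 at 1735, 2466 and 1584. These 4 were all lowest at 12 weeks. Chosen after their values were seen, Eln (elastin) was at 252, 182 and 102 CPM and the basement membrane collagens Col4a1 and Col4a2 at 253, 307 and 60.9 and at 187, 107 and 30.5. In endothelial cells the same list was at 11822, 15251 and 10190 CPM, in fibroblasts at 34893, 51435 and 29118 and in pericyte-side cells at 10056, 12015 and 9046, so that it was lowest at 12 weeks in those too. In blood cells it was at 1298, 1206 and 1432 CPM. Inside the 3 VSMC bins the list was at 13597, 8145 and 7876 CPM in healthy cells and 7630, 6510 and 6498 at 12 weeks, lower in each.

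Genes of the modulated state were mixed. Of 26 measured, 18 were higher and 8 lower at 2 weeks, with a median of 0.23, and 10 and 16 at 12 weeks, with -0.19. Timp3, an inhibitor of matrix proteases, was at 1101, 1167 and 447 CPM. Mgp (matrix Gla protein, which holds back calcification) was at 807, 1638 and 955 CPM, and S100a6 at 358, 753 and 305, both named after their values were seen. Growth factor and TGF-beta genes were lower in 20 of 24 cases at 12 weeks, with a median of -0.37, against 9 of 24 at 2 weeks, and the binding protein Igfbp5 was at 692, 954 and 416 CPM. The 20 measured pericyte genes outside the rule were higher in 16 cases at 2 weeks, with a median of 0.32, and in 11 at 12 weeks. Ndufa4l2 was at 580, 1048 and 762 CPM and Cox4i2 at 454, 929 and 863, both proteins of the mitochondrial respiratory chain, and Rgs4 was at 416, 703 and 721. At 2 weeks 52.5% of VSMCs (36.1 to 68.5) lay in the bin next to the pericyte side, against 33.8% (28.2 to 39.7) of healthy VSMCs and 28.6% (11.3 to 52.2) at 12 weeks.

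**Figure D5:**
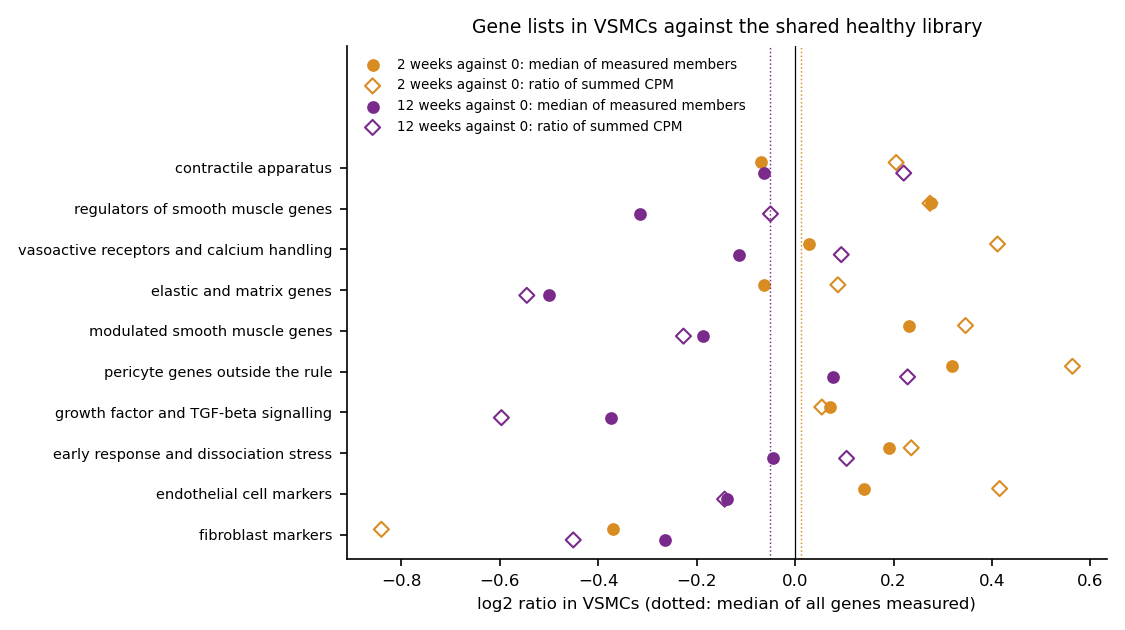
Log2 ratios of gene lists in VSMCs (x axis) at 2 and 12 weeks against the shared healthy library, as the median of measured members (filled circles) and the ratio of summed CPM (open diamonds); dotted lines are the medians of all genes. The elastic and matrix list at 12 weeks lies at -0.50, and the contractile list has sums above 0 with medians at -0.07 and -0.06.

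Early response genes summed to 36900, 43455 and 39673 CPM, with 20 of 27 higher at 2 weeks and 10 at 12 weeks. Fos, the most abundant, was at 3836, 5421 and 5585 CPM. Of the clock genes, 6 of 8 measured were higher at 2 weeks and 2 of 7 at 12 weeks. Markers of other cells moved between the libraries as well. The endothelial list was at 3331, 4442 and 3016 CPM, with 35.5% and 43.4% of its TAC UMIs in 2 cells, the fibroblast list at 2123, 1186 and 1554 and the blood list at 444, 163 and 426. The cardiomyocyte list was at 179, 169 and 508 CPM, with Tnnt2 at 119, 94.1 and 406, and 44% of its 12-week UMIs in 2 cells. The neural list held 18, 5 and 1 UMIs. Their part in the values above was not tested. When cells with at most 1 endothelial UMI alone were used, the contractile ratios were 1.10 at 2 weeks and 1.04 at 12 weeks.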

How the data were processed

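The authors isolated non-CMs of ventricles with collagenase, red cell lysis and a density gradient, made 10x Chromium 3' libraries and deposited raw UMI counts as 1 matrix of 27998 genes per phase. Cell Ranger 2.0.0 and mm10 are named in the submitters' processing notes. Counts were read as deposited, with no normalization by the authors. Strand setting of the counting is not given in the sources used here, and reads of near-identical or overlapping genes may be shared.

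Cells with at least 200 genes were kept. UMIs were summed over the VSMCs of a library and divided by their total. Ratios have exact conditional binomial intervals, levels exact Poisson intervals and shares exact Clopper-Pearson intervals. A gene was measured with at least 20 UMIs in both groups together and passed when over 2-fold with 50 CPM added to both levels. With 1 library per phase there is no test. A count of 0 was taken to allow 3 counts. Reference cells had at least 3 UMIs of their own sum and over 2 times each other sum. Named genes were the rule genes and markers, the 8 largest changes each way per week with at least 10 UMIs in the higher group, the 12 largest each way against pericyte-side cells with at least 50 UMIs, the 10 most variable with at least 100 UMIs, and the 4 most abundant of each list. Some of the genes that this rule names are not reported here. The ranked sets hold no mitochondrial, ribosomal protein or haemoglobin genes. The members, lists and rules were chosen with earlier results of these data known. Scrublet was run through scanpy 1.11.5 with Python 3.11.15, numpy 2.4.6 and scipy 1.17.1. The scripts were tested on simulated data. Repeats with 1 choice changed at a time covered cell filters, margins of the rule, thinning, weighting of cells, pseudocount and minimum counts.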

Additional observations from a re-analysis of the deposited data

Results flagged for a closer look

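The heat shock gene Hspa1b was the only gene over 2-fold away from healthy VSMCs in opposite directions at 2 and 12 weeks. Its log2 ratio was 1.05 at 2 weeks and -1.69 at 12 weeks, with 178, 67 and 2 UMIs and 177, 420 and 20.3 CPM at 0, 2 and 12 weeks. The ratios were 2.38 (1.77 to 3.16) and 0.115 (0.0138 to 0.421), and 29.9% of the 2-week UMIs came from 1 cell. Hspa1a, its near-identical copy, was at 958, 1945 and 579 CPM, and reads of the pair may be shared. Each phase has 1 library, and the difference between them was not tested.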

How the results depend on the processing

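No paired analysis was possible because each phase has 1 library and the labels give no replicate numbers. There were 12 planned and 4 added alternatives, the added ones chosen after seeing the data. Those with at least 20 or 5 UMIs, at least 500 genes or Scrublet calls removed moved no answer. Thinning cells to 1000 UMIs before the rule, with at least 5 UMIs in the sum (added), moved none of the 6 values repeated. Those were VSMC shares and VSMCs per pericyte-side cell, from 3892, 1625 and 524 cells at 0, 2 and 12 weeks. Gene counts and contractile ratios were not repeated with that thinning. Why the other alternatives moved answers was not tested. Below, higher and lower are genes over 2-fold, and ratios are the summed contractile level at 2 and 12 weeks. Without cells of over 10% mitochondrial UMIs, the VSMC share was 4.65% at 0 and 0.890% at 2 weeks, VSMCs per pericyte-side cell 1.12 at 0 weeks, 47 genes were higher and 73 lower at 2 weeks, 204 lower at 12 weeks, and the ratios 1.26 and 1.27. With a margin of 2 times over the other mural sum the share was 5.32% and 1.26%, 59 genes were higher at 2 weeks, 168 higher and 196 lower against pericyte-side cells, and the ratios 1.10 and 1.11. With over 5 times each other lineage, VSMCs per pericyte-side cell were 2.13 at 0 weeks and the ratios 1.12 and 1.10. With pericyte-side cells limited to those of 10 smooth muscle UMIs, VSMCs per such cell were 2.93, 3.08 and 7, the last resting on few cells. Against them 39 genes were lower. With at most 1 endothelial UMI (added), 51 genes were higher and 80 lower at 2 weeks, 193 lower at 12 weeks, 130 higher and 132 lower against pericyte-side cells, the ratios were 1.10 and 1.04, and the log2 ratio of Edn1 at 2 weeks turned to -0.25. Thinned to 1000 UMIs, 67 were higher and 157 lower at 2 weeks, 339 lower at 12 weeks, 123 higher and 135 lower against pericyte-side cells, and the ratios 1.10 and 1.02. With each cell weighing the same, 60 were higher at 2 weeks, 102 at 12 weeks, 118 lower against pericyte-side cells, and the ratios 1.07 and 1.06. With 10 CPM added, 193 were higher and 457 lower at 2 weeks, 244 and 857 at 12 weeks, and 228 and 374 against pericyte-side cells. With at least 50 UMIs, 42 were higher at 12 weeks. With Malat1 and mitochondrial UMIs out of the totals (added), 71 were lower at 2 weeks and 178 at 12 weeks, and the ratios 1.05 and 1.11. Without the cell of most UMIs per gene (added), 19 were higher at 2 weeks and 44 at 12 weeks. Of 384 values of named genes under the alternatives, 383 kept their sign and 373 passed 2-fold. These genes were picked as the largest changes in the same cells, so such counts were likely from the start. Of the values, 45 moved outside the interval of the main setting. That number includes 12 with thinned cells and 8 without cells of over 10% mitochondrial UMIs. Precision is limited by 40 and 21 VSMCs in the TAC libraries and by 1 library per phase.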
